A study of Caenorhabditis elegans with 6 samples.

Results

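The cytochrome P450 (CYP) genes of Caenorhabditis elegans that lie outside the cyp-35 subfamily were followed in whole worms exposed to diazinon (DZN), an organophosphorus insecticide. The genes were taken by name. Every gene whose current symbol starts with cyp-, other than the cyp-35 genes, was matched to the array through the sequence name of each worm probe. Of 69 such genes in the reference gene table, 64 were measured, by 75 probes, out of 17922 genes measured in all. The genes cyp-13A8, cyp-13A9, cyp-14A4, cyp-25A3 and cyp-33D3 matched no probe and were not analysed here. The 64 genes fall into 14 numbered subfamilies, and 31 of them lie on chromosome V, 11 on II, 9 on IV, 7 on X, 5 on III and 1 on I. The reference table marks 4 of them (cyp-25A5, cyp-29A1, cyp-31A1 and cyp-34A3) as pseudogenes.

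Worms of the wild type strain N2 grew from synchronized eggs on NGM agar with E. coli OP50 as food, for 72 h at 16 °C, with DZN dissolved in acetone or with acetone alone (control). The labels describe L3/L4 worms and the treatment protocol L3 worms. The dose of DZN is 1 mg/ml in the sample names and 0.5 mg/ml in the protocol, and the study's methods state it per litre, so neither stage nor dose is settled here. Per the methods each sample held the worms of 4 dishes, and per the design text the 6 arrays were separate biological replicates. Each two-colour array carried 1 DZN and 1 control extract, with DZN in Cy5 on 3 arrays (DZN-Cy5 replicates 1 to 3) and in Cy3 on the other 3 (DZN-Cy3 replicates 1 to 3).

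P450 enzymes are heme-thiolate monooxygenases that insert an oxygen atom into lipophilic substrates, with electrons delivered by a reductase. They form the first phase of the metabolism of foreign compounds, and in mammals and insects they convert organophosphorothioates such as DZN both to the more toxic oxon and to cleaved products. Other members of the family work on the worm's own lipids, such as fatty acids and sterols. By sequence, cyp-13, cyp-25 and cyp-43 belong with the CYP3 clan of other animals, cyp-14, cyp-23, cyp-33, cyp-34 and cyp-36 with the CYP2 clan, cyp-29, cyp-31, cyp-32, cyp-37 and cyp-42 with the CYP4 clan, and cyp-44 with the mitochondrial clan.

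Between 63.3% and 81.4% of all worm probes were above background per channel on the DZN-Cy3 arrays, against 49.7% to 66.2% on the DZN-Cy5 arrays. The brightness of an array thus went in part with its dye orientation. The ranges overlap, as DZN-Cy3 replicate 3 had 63.3% in its DZN channel. The parts of brightness and dye in a ratio were not told apart. The correlation of the ratios of a pair of arrays over all probes lay between -0.24 and 0.57. Of the 64 genes, 25 were above background in all 12 channels, 51 in at least 6, and 5 in none (cyp-13A4, cyp-13B2, cyp-29A4, cyp-33C1 and cyp-34A3), and none was saturated in any channel. Among all genes 12.2% were above background in no channel.

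The first question was whether transcripts of these genes differed between DZN-exposed and control worms. Most of the family lay slightly above control, a few genes lay far above it, and no gene passed either test in the lower direction. The log2 ratio of DZN over control (a value of 1 is a doubling of the normalized intensity) had a median of 0.14 over the 64 genes, with an SD of 0.12 over the 6 arrays, against -0.01 over all genes. It was above 0 for 46 of 64 genes, or 71.9%, against 48.4% of all genes, with the 5 genes above background in no channel counted among the 64. As whole worms were measured, more transcript per cell and more cells that hold it cannot be told apart.

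limma, with p-values adjusted over all worm probes, called 1 of the 64 genes higher (cyp-34A10) and 0 lower, against 0.0112% of all genes higher and 0.00558% lower. Rank products, the test named in the study's methods, called 8 higher at a percentage of false positives (PFP, the share of calls at that rank estimated to be false) under 0.05, and 0 lower. The 8 genes were cyp-13A6, cyp-34A9, cyp-34A10, cyp-14A3, cyp-32B1, cyp-25A1, cyp-37A1 and cyp-37B1. Of all genes 0.636% were called higher and 0.764% lower by that test. At an unadjusted p under 0.05 in limma 15 of the 64 genes were higher and 0 lower, against 3.3% and 8.51% of all genes. A ratio above 0 on all 6 arrays was found for 13 genes and a ratio below 0 on all 6 for 0, against 2.07% and 3.51% of all genes. A mean ratio over 0.5 was found for 14 genes and one below -0.5 for 0, against 1.56% and 4.44% of all genes.

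**Figure D1:**
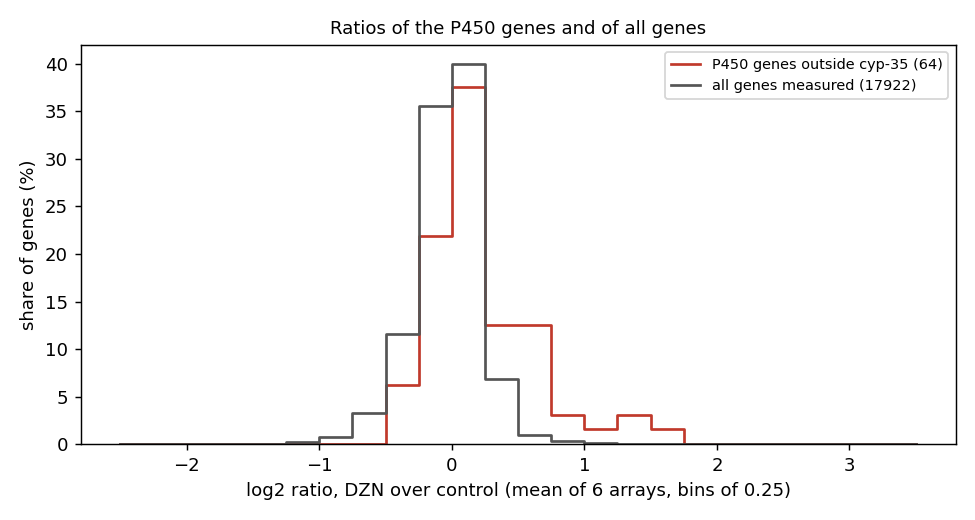
Share of genes in percent (vertical axis) by mean log2 ratio of DZN over control over 6 arrays, in bins of 0.25 (horizontal axis), for the 64 P450 genes outside cyp-35 (red) and for all 17922 genes (grey). The lower ends are unlike, as no P450 gene lies below -0.39, and the P450 line runs above the grey line from 0.25 to 1.75.

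The 8 calls fell in 6 subfamilies. The subfamily medians were 0.12 for the 12 cyp-13 genes, 0.28 for the 4 cyp-14 genes, 0.50 for the 5 cyp-25 genes, 0.17 for the 4 cyp-29 genes, 0.09 for the 17 cyp-33 genes, 0.18 for the 9 cyp-34 genes, 0.70 for the 2 cyp-32 genes and 0.66 for the 2 cyp-37 genes. The 4 cyp-31 genes were the one subfamily of several genes with all its members below 0, and their median was -0.10. These medians rest on few genes and moved by over 1.5 times when some arrays were left out. Without DZN-Cy5 replicate 1 the median of cyp-13 was 0.07, without DZN-Cy5 replicate 2 that of cyp-37 was 0.40 and of cyp-31 -0.07, and without DZN-Cy5 replicate 3 that of cyp-37 was 1.05 and of cyp-31 -0.16. Without DZN-Cy3 replicate 1 the median of cyp-14 was 0.11 and of cyp-29 0.10, without DZN-Cy3 replicate 2 that of cyp-33 was 0.16, and without DZN-Cy3 replicate 3 that of cyp-32 was 0.36, of cyp-37 0.37 and of cyp-31 -0.15. The median of cyp-34 lay between 0.07 in the authors' own ratios and 0.59 with spots of other quality codes than 3 left out. By clan the medians were 0.14 over 18 genes of the CYP3 type, 0.17 over 32 of the CYP2 type and 0.12 over 13 of the CYP4 type, a grouping chosen after the values were seen. For comparison, the 10 measured cyp-35 genes had a median of 0.80, with 5 called higher by rank products. The difference between the subfamilies was not tested.

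**Figure D2:**
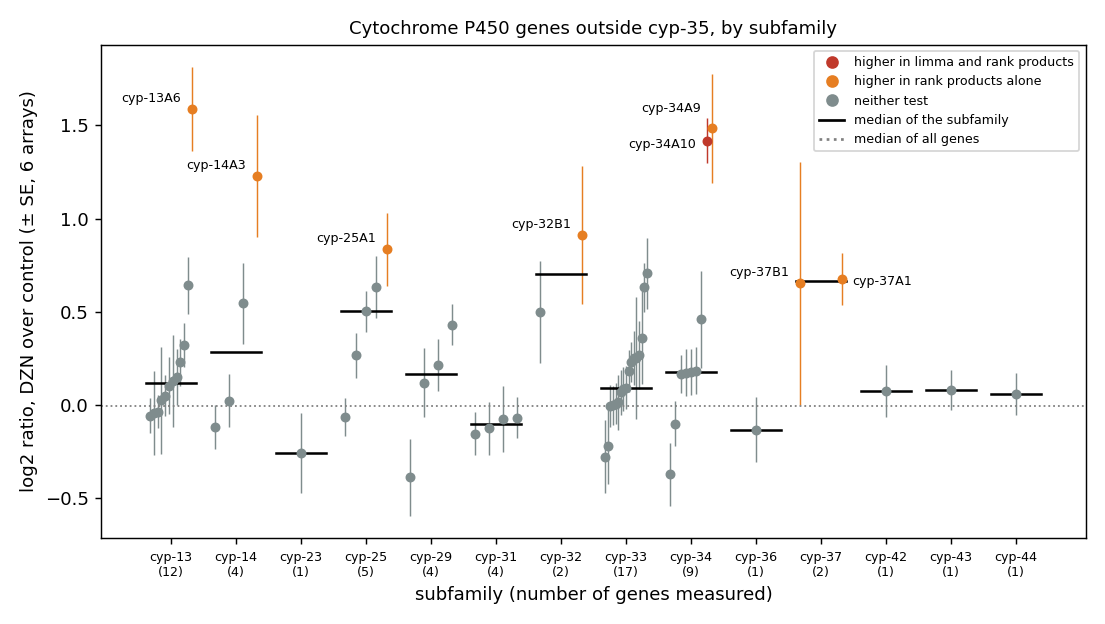
Mean log2 ratio of DZN over control with its standard error (6 arrays) for each of the 64 genes, grouped by subfamily along the horizontal axis. Red marks the call of both tests, orange the calls of rank products alone and grey no call, black bars are subfamily medians and the dotted line is the median of all genes. In cyp-13 and cyp-34 the highest genes stand apart from the rest, as cyp-13A6 at 1.59 does from a cyp-13 median of 0.12, while the 4 cyp-31 genes lie close together.

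Among genes of the CYP3 type, cyp-13A6 (T10B9.3, chromosome II) had the highest ratio of the 64. Its normalized log2 level was 10.37 at the lowest, 11.22 at the median and 12.20 at the highest in DZN worms, against 9.01, 9.74 and 10.31 in control worms. These ranges do not overlap, which held for 1 of the 64 genes and 0.0781% of all genes. No gene of the 64 had all its DZN levels below its control levels, against 0.0335% of all genes. The ratios, here and for the genes that follow in the order of replicates 1, 2 and 3, were 1.78, 1.23 and 1.59 on the DZN-Cy5 arrays and 2.47, 1.84 and 0.61 on the DZN-Cy3 arrays. All 6 arrays were thus above 0, with DZN-Cy3 replicate 3 the lowest, and both dye orientations gave like means of 1.53 and 1.64. The mean was 1.59 ± 0.23 (limma SE), a 3.01-fold difference that passed rank products and missed the threshold in limma (adjusted p = 0.105). With median centring in place of loess limma called it (adjusted p = 0.0234), as it did without DZN-Cy3 replicate 3 (1.84, adjusted p = 0.0358). Rank products called it in each of the 6 runs with 1 array left out.

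Of the other 11 cyp-13 genes none was called, and cyp-13A4 and cyp-13B2 were above background in no channel, which leaves them without a measured ratio. The remaining 9 ranged from -0.04 to 0.64. The highest of these, cyp-13A5, had 0.64 ± 0.15 (limma adjusted p = 0.251) and was called by rank products only without DZN-Cy5 replicate 3, one of 2 arrays on which it lay below 0. cyp-13A12, which acts on polyunsaturated fatty acids in the response of worms to reoxygenation, had levels of 6.38, 7.14 and 7.49 (lowest, median, highest) in DZN worms and 6.01, 6.84 and 7.18 in control worms. It was above background in 2 of 6 channels of either treatment, and its ratio of 0.32 ± 0.12 (limma adjusted p = 0.402) was above 0 on all 6 arrays.

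Of the cyp-25 genes, cyp-25A1 (C36A4.1, chromosome III) was called higher by rank products. Its level was 9.05, 10.17 and 12.10 in DZN worms, against 7.87, 9.35 and 11.18 in control worms, so the ranges overlap widely, and levels differed more between arrays than between treatments. The ratios were 0.63, 0.92 and -0.01 on the DZN-Cy5 arrays and 0.47, 1.18 and 1.81 on the DZN-Cy3 arrays. DZN-Cy5 replicate 3 was the array with no difference and DZN-Cy3 replicate 3 the highest. The mean was 0.83 ± 0.19 (limma adjusted p = 0.241), with a PFP of 0.0155. Rank products kept this call in 2 of 6 runs with 1 array left out, and lost it without DZN-Cy5 replicate 1 (PFP 0.0667) or 2 (0.0901) and without DZN-Cy3 replicate 2 (0.16) or 3 (0.104). A dimmer second probe of the gene gave 0.40 ± 0.13, and the mean over both probes was not called (PFP 0.074).

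Ratios above 0 on all 6 arrays without a call were found for cyp-25A6, at 0.63 ± 0.17 (limma adjusted p = 0.289), and the pseudogene cyp-25A5, at 0.50 ± 0.11 (adjusted p = 0.224). The ratio of cyp-25A5 ranged from 0.10 to 0.71, an SD of 0.26 over arrays. cyp-25A4 had the lowest ratio of the subfamily, -0.06 ± 0.10, with 0.33, 0.09 and 0.15 on the DZN-Cy5 arrays and -0.18, -0.54 and -0.24 on the DZN-Cy3 arrays. Its sign turned with the dyes, and the difference between orientations did not pass in limma (adjusted p = 0.403). The 2 dimmer probes of cyp-25A4 gave -0.03 ± 0.13 and 0.26 ± 0.12, the last with means of 0.04 on the DZN-Cy5 arrays and 0.48 on the DZN-Cy3 arrays, so the probes do not share a direction. cyp-43A1 had levels of 10.38, 10.58 and 10.68 in DZN worms and 10.25, 10.47 and 10.70 in control worms, and a ratio of 0.08 ± 0.11.

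Among genes of the CYP2 type, the neighbours cyp-34A10 (B0213.16) and cyp-34A9 (B0213.15) on chromosome V had the highest ratios. For cyp-34A10 the level was 8.18, 9.93 and 10.97 in DZN worms, against 7.74, 8.39 and 9.12 in control worms. The ratios were 0.70, 0.28 and 0.44 on the DZN-Cy5 arrays and 2.07, 2.31 and 2.71 on the DZN-Cy3 arrays. All 6 arrays were above 0, but the 2 sets of arrays did not overlap, with means of 0.47 and 2.36, a difference of -1.89 for DZN-Cy5 minus DZN-Cy3 (limma adjusted p of the dye term = 0.176). The mean of 1.42 ± 0.12, a 2.67-fold rise, passed in limma with the dye term (adjusted p = 0.0231) and in rank products (PFP 0.000417).

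The limma call of cyp-34A10 was kept in 1 of 6 fits with 1 array left out. Its adjusted p was 0.238, 0.0829 and 0.104 without DZN-Cy5 replicate 1, 2 or 3, and 0.177 and 0.312 without DZN-Cy3 replicate 1 or 2, against 0.0358 without DZN-Cy3 replicate 3. The mean itself moved little over these fits, between 1.33 and 1.49. With no dye term in the fit the adjusted p was 0.405. Rank products called the gene in all 6 runs with 1 array left out.

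For cyp-34A9 the level was 12.20, 12.59 and 13.26 in DZN worms, against 10.12, 11.30 and 12.22 in control worms, and the ranges overlap only at their ends. The ratios were 1.10, 2.53 and 0.06 on the DZN-Cy5 arrays and 1.18, 2.08 and 1.96 on the DZN-Cy3 arrays. Every array was above 0, and DZN-Cy5 replicate 3 was close to it, where the control level was the highest of the 6. The mean was 1.48 ± 0.29, a 2.80-fold difference that passed in rank products and missed the threshold in limma (adjusted p = 0.176). Rank products called it in all 6 runs with 1 array left out, and limma in none (adjusted p = 0.148 to 0.685).

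The other 7 cyp-34 genes ranged from -0.37 to 0.46 and none of them was called. The lowest was cyp-34A2, with 7.87, 9.58 and 10.16 in DZN worms, 7.82, 10.05 and 10.92 in control worms and a ratio of -0.37 ± 0.17 (limma adjusted p = 0.479). It was below 0 on 4 of 6 arrays, with DZN-Cy3 replicate 3 the lowest at -1.29.

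Of the cyp-14 genes, cyp-14A3 (K09A11.4, chromosome X) was called higher by rank products. Its level was 6.51, 7.58 and 9.53 in DZN worms, against 5.91, 6.58 and 7.43 in control worms, and it was above background in 5 of 6 DZN channels and 1 of 6 control channels. The ratios were 0.47, 0.10 and 0.70 on the DZN-Cy5 arrays and 3.24, 2.46 and 0.40 on the DZN-Cy3 arrays. All arrays were above 0, but DZN-Cy3 replicates 1 and 2 stood far above the other 4. The mean was 1.23 ± 0.33 (limma adjusted p = 0.292), with a PFP of 0.00227, and it is taken against control channels of which only 1 was above background, so its size is not well measured. The call was lost without DZN-Cy3 replicate 1 (PFP 0.0996) and without DZN-Cy3 replicate 2 (0.134), and limma called the gene without DZN-Cy3 replicate 3 (1.64, adjusted p = 0.0392). The size of the ratio moved with the processing, to 0.93 with no background correction, 2.03 with plain subtraction and 2.85 with spots of other quality codes than 3 left out.

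The 2 arrays that carried cyp-14A3 were also those with the lowest medians of the sperm-linked and of the oocyte and eggshell marker genes. The oocyte and eggshell genes had -0.91 and -0.66 on DZN-Cy3 replicates 1 and 2, against -0.13 to 0.95 on the other arrays. The yolk protein genes had -4.17 and -2.79 there, and -3.24 on DZN-Cy5 replicate 1. On DZN-Cy3 replicates 1 and 2 the 15 major sperm protein genes had median ratios of -1.23 and -1.30, against -0.66, -0.04 and 0.75 on the DZN-Cy5 arrays and 0.14 on DZN-Cy3 replicate 3. Whether stage had a part in the ratio of cyp-14A3 was not tested. Of the other cyp-14 genes, cyp-14A1 was lowest at -0.12 ± 0.12 and cyp-14A5 had 0.02 ± 0.14, with single arrays between -0.48 and 0.72.

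The 17 cyp-33 genes had ratios between -0.28 and 0.71, and none of them was called by either test, with 2 higher at an unadjusted p under 0.05 in limma. The highest were cyp-33C8 and cyp-33C9, both above 0 on all 6 arrays. cyp-33C8 had levels of 8.12, 10.02 and 10.79 in DZN worms against 8.03, 9.03 and 10.23 in control worms, and a ratio of 0.71 ± 0.19 (limma adjusted p = 0.294) with a PFP of 0.0545, just over the threshold. Rank products called it with no background correction, in the authors' own ratios and with the mean over a gene's probes. cyp-33C9 had 9.31, 10.61 and 11.45 in DZN worms against 8.22, 10.19 and 10.56 in control worms, and a ratio of 0.63 ± 0.13 (adjusted p = 0.189). Its single arrays lay between 0.31 and 1.08. The lowest was cyp-33B1, at -0.28 ± 0.20, with 0.17, 0.16 and 0.57 on the DZN-Cy5 arrays and -0.09, -0.79 and -1.69 on the DZN-Cy3 arrays. cyp-33E2, which forms eicosanoids from polyunsaturated fatty acids and acts in the pharynx, had -0.22 ± 0.20 (adjusted p = 0.719).

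The single genes of the CYP2 type lay below 0 without a call. cyp-23A1 had levels of 8.59, 8.83 and 9.59 in DZN worms against 8.57, 9.11 and 9.85 in control worms, and a ratio of -0.26 ± 0.21. cyp-36A1, which acts downstream of the hypoxia factor hif-1 through the nuclear receptor nhr-46, had 7.55, 9.39 and 9.99 in DZN worms against 8.63, 9.45 and 9.69 in control worms. Its ratio of -0.13 ± 0.17 (limma adjusted p = 0.808) joins a mean of -0.64 on the DZN-Cy5 arrays and one of 0.37 on the DZN-Cy3 arrays, so no direction can be read from it.

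Among genes of the CYP4 type, cyp-32B1, cyp-37A1 and cyp-37B1 were called higher by rank products. cyp-37A1 (F01D5.9, chromosome II) had the smallest SD over arrays of the 8 called genes, 0.33. It had levels of 10.71, 11.57 and 11.93 in DZN worms against 10.09, 10.77 and 11.35 in control worms, and ratios of 0.62, 1.13 and 0.13 on the DZN-Cy5 arrays and 0.62, 0.68 and 0.86 on the DZN-Cy3 arrays. The mean was 0.67 ± 0.14 (limma adjusted p = 0.189), and the PFP of 0.0422 was near the threshold. The call was kept only without DZN-Cy5 replicate 3 (PFP 0.0217). It was lost without DZN-Cy5 replicate 1 or 2 (PFP 0.15 and 0.277) and without DZN-Cy3 replicate 1, 2 or 3 (0.0977, 0.16 and 0.104).

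cyp-32B1 (Y5H2B.5, chromosome V) had levels of 9.31, 10.04 and 11.13 in DZN worms against 8.04, 9.55 and 9.68 in control worms. The ratios were 0.65, 0.91 and -0.37 on the DZN-Cy5 arrays and -0.05, 1.24 and 3.10 on the DZN-Cy3 arrays. One array, DZN-Cy3 replicate 3, had much the highest ratio, and 2 arrays were below 0. The mean was 0.91 ± 0.37 (limma adjusted p = 0.442) with a PFP of 0.0218. The call was lost without DZN-Cy3 replicate 3, where the mean was 0.50 (PFP 0.324), and also without DZN-Cy5 replicate 1 or 2 (0.0987 and 0.117) and without DZN-Cy3 replicate 2 (0.219). The other gene of the subfamily, cyp-32A1, had 0.50 ± 0.27 (limma adjusted p = 0.546) and the same 2 arrays below 0.

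cyp-37B1 (F28G4.1, chromosome V) varied most between arrays. Its level was 9.31, 10.96 and 11.88 in DZN worms against 8.66, 10.19 and 11.49 in control worms. The ratios were 1.41, 2.04 and -2.16 on the DZN-Cy5 arrays and -1.13, 0.70 and 3.04 on the DZN-Cy3 arrays. It was above 0 on 4 arrays and far below it on 2, with an SD of 1.97 over arrays, and the mean of 0.65 ± 0.65 gave an adjusted p of 0.744 in limma beside a PFP of 0.00644. Rank products weigh ranks array by array and can call a gene whose arrays disagree in sign. The call was lost without DZN-Cy5 replicate 1 or 2 (PFP 0.106 and 0.14) and without DZN-Cy3 replicate 3 (0.105). Leaving out DZN-Cy5 replicate 1 or 2 brought the mean to 0.41 or 0.25, and leaving out DZN-Cy3 replicate 3 to 0.11. It was 1.30 when DZN-Cy5 replicate 3 was left out and 1.15 when DZN-Cy3 replicate 1 was.

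**Figure D3:**
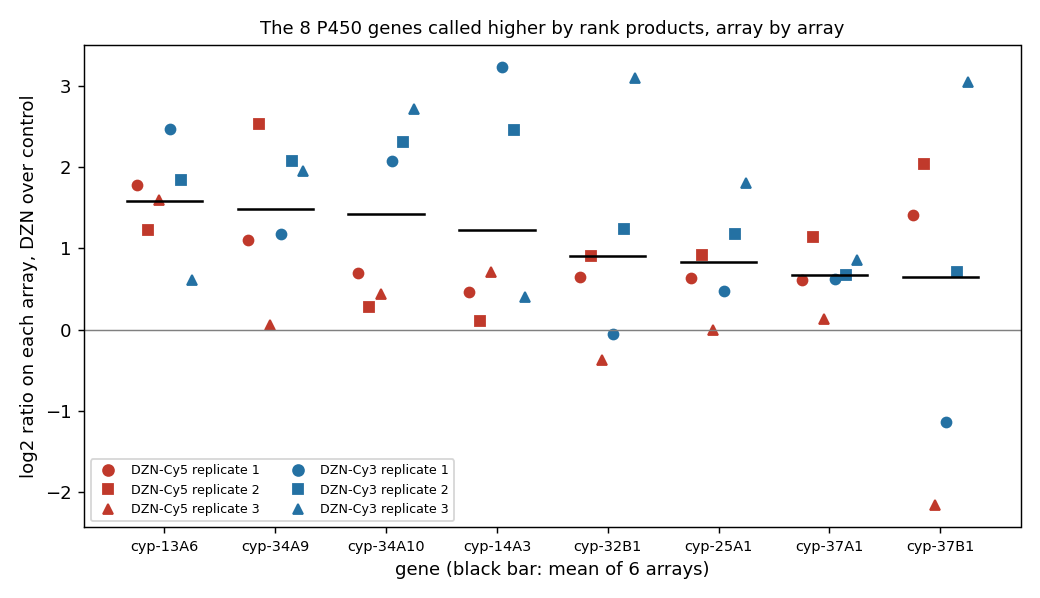
Log2 ratio of DZN over control on each of the 6 arrays (vertical axis) for the 8 genes called higher by rank products (horizontal axis), with DZN-Cy5 arrays in red, DZN-Cy3 arrays in blue and the mean as a black bar. For cyp-34A10 the blue points (2.07 to 2.71) lie apart from the red ones (0.28 to 0.70), and cyp-37B1 spans from -2.16 to 3.04.

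The remaining genes of the CYP4 type were not called. cyp-29A2 was above 0 on all 6 arrays, at 0.43 ± 0.11 (limma adjusted p = 0.281), with a lowest array of 0.00. Its level was 11.15, 11.72 and 12.68 in DZN worms and 10.89, 11.42 and 11.76 in control worms. The pseudogene cyp-29A1 had the lowest value of the 64 genes, -0.39 ± 0.21 (adjusted p = 0.537), which differs from that of cyp-34A2 (-0.37 ± 0.17) by less than either error. It lay below 0 on 4 arrays, and its mean was -0.18 without DZN-Cy3 replicate 3. A dimmer second probe gave -0.12 ± 0.13. cyp-29A3, which like cyp-33E2 takes part in eicosanoid synthesis, had 0.12 ± 0.18, and cyp-42A1 had 0.07 ± 0.14 with means of 0.38 on the DZN-Cy5 arrays and -0.24 on the DZN-Cy3 arrays.

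The cyp-31 genes include cyp-31A2 and cyp-31A3, which with the reductase emb-8 are needed for the lipid layer of the eggshell. cyp-31A2 had a mean level of 11.28 ± 0.75 in DZN worms and 11.40 ± 0.62 in control worms (SD, n = 6 each), with a ratio of -0.13 ± 0.14 (limma adjusted p = 0.778). cyp-31A3 had 10.46, 11.26 and 12.11 in DZN worms and 10.54, 11.44 and 12.31 in control worms, with a ratio of -0.16 ± 0.12 (adjusted p = 0.655). Each was below 0 on 5 of 6 arrays, and the array above 0 was DZN-Cy3 replicate 3 for both. cyp-31A5 had -0.07 ± 0.11. Dimmer second probes of cyp-31A1, cyp-31A2 and cyp-31A3 gave 0.21, 0.13 and 0.08, on the other side of 0 from their brightest probes, so no direction holds for this subfamily over its probes. The mitochondrial-type cyp-44A1 had levels of 9.81, 10.14 and 10.58 in DZN worms and 9.75, 10.17 and 10.32 in control worms, and a ratio of 0.06 ± 0.11.

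**Figure D4:**
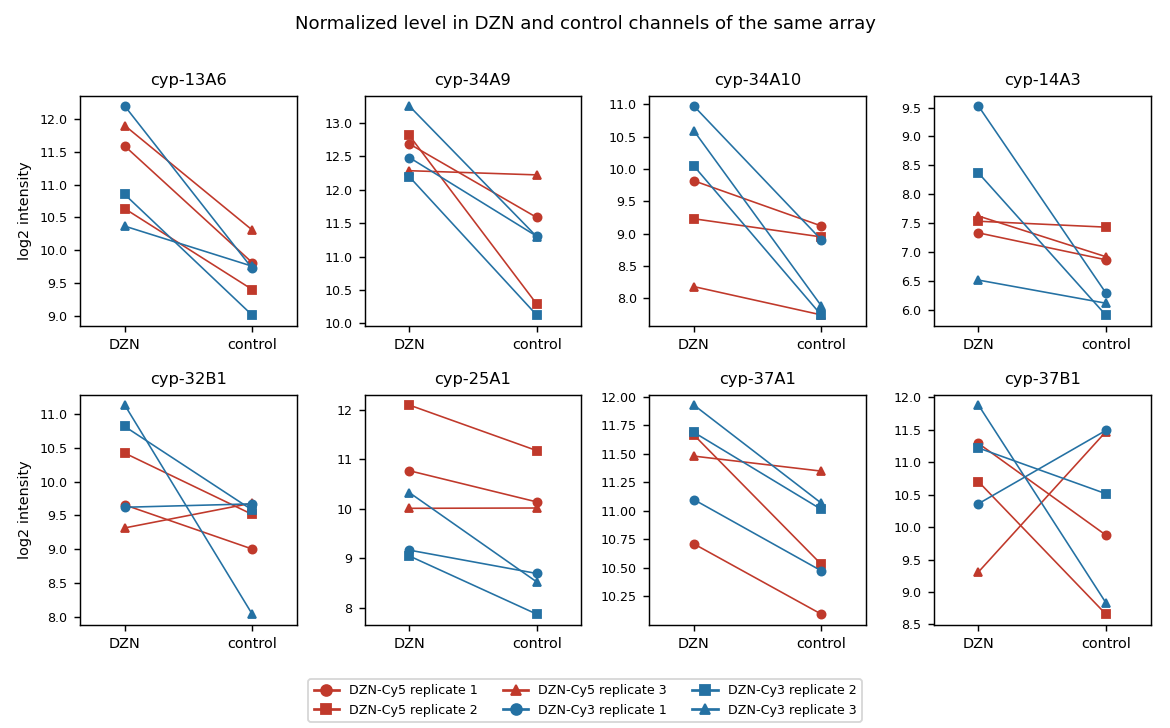
Normalized log2 intensity (vertical axis, a scale of its own in each panel) of the 8 genes called higher by rank products, with DZN on the left and control on the right of each panel. Each line joins the 2 channels of 1 array, red for DZN-Cy5 and blue for DZN-Cy3. All lines of cyp-13A6 fall towards the control side and its DZN points (10.37 to 12.20) lie above its control points (9.01 to 10.31), while 2 lines of cyp-37B1 climb.

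The genes of the family did not all have their highest or lowest ratio on the same array. The median ratio of the 64 genes was 0.17, 0.08 and -0.02 on the DZN-Cy5 arrays and 0.19, 0.32 and 0.24 on the DZN-Cy3 arrays. DZN-Cy5 replicate 3 was the one array with a median not above 0, and 24 of the 64 genes had their lowest ratio there. All genes had a median of -0.04 on that array. The spread of ratios over all worm probes (median absolute deviation, scaled as an SD) was 0.45 on DZN-Cy3 replicate 3 and 0.40 on DZN-Cy5 replicate 3. On the other arrays it was 0.27 to 0.32, so the 2 arrays were the widest for any genes. DZN-Cy3 replicate 3 held the highest ratio of 21 genes and DZN-Cy3 replicate 1 that of 20. Of these, 11 genes were highest on DZN-Cy3 replicate 3 and lowest on DZN-Cy5 replicate 3, among them cyp-25A1, cyp-32B1 and cyp-37B1. Another 7 were highest on DZN-Cy3 replicate 1 and lowest on DZN-Cy5 replicate 2, among them cyp-14A3, cyp-14A2 and cyp-33C8. Such counts were not made over all genes. Over the 3 DZN-Cy5 arrays the median of the gene means was 0.06, and over the 3 DZN-Cy3 arrays 0.26. No dye term of the 64 genes passed in limma (smallest adjusted p = 0.176).

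Markers of stage and tissue were read beside these values. The 6 yolk protein genes, expressed in the adult intestine, had median ratios of -3.24, -0.53 and -0.26 on the DZN-Cy5 arrays and -4.17, -2.79 and 1.12 on the DZN-Cy3 arrays, and rank products called 6 of 6 lower. Their log2 level was averaged over the genes on each array. Over the arrays this average ran from 8.66 to 12.39 in DZN worms and 9.92 to 12.79 in control worms. For the 15 major sperm protein genes the array average ran from 12.24 to 14.12 in DZN worms and 12.63 to 13.83 in control worms. Of these genes 0 were called, and msp-36 was above background in no channel. Of 5 other sperm genes 1 was called lower by rank products (spe-11, -1.02 ± 0.17), and spe-38 was above background in no channel. For the 8 oocyte and eggshell genes the array average ran from 9.13 to 10.56 in DZN worms and 9.15 to 10.54 in control worms. Their median ratios were -0.13, -0.02 and 0.95 on the DZN-Cy5 arrays and -0.91, -0.66 and 0.12 on the DZN-Cy3 arrays. The gonad sheath gene ceh-18 had a ratio of -0.01. The 7 intestinal genes were above background in all 12 channels, and 1 of them, pho-1, was called lower by rank products (-0.84 ± 0.31). Their array average ran from 12.56 to 13.26 in DZN worms and 12.52 to 13.23 in control worms. limma called 0 genes of these lists, against 0.0112% of all genes higher and 0.00558% lower. At an unadjusted p under 0.05 it had 4 yolk, 2 sperm and 1 intestinal gene lower, against 8.51% of all genes. Rank products called 0.764% of all genes lower. The part of stage in the ratios of the P450 genes was not tested.

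Many of the genes lie side by side. With at most 3 other genes between neighbours, 38 of the 69 listed genes fall into 9 clusters, and the ratios differed widely within some clusters and little within others. In the cluster of cyp-34A5 to cyp-34A10 on chromosome V, where no other gene lies between, the ratios were 0.16, -0.10, 0.17 and 0.46 for cyp-34A5 to cyp-34A8, beside 1.48 and 1.42 for cyp-34A9 and cyp-34A10. cyp-34A8 had single arrays from -0.38 to 1.76. In the cyp-13A cluster on chromosome II, cyp-13A6 at 1.59 lies between cyp-13A5 at 0.64 and cyp-13A7 at 0.02, and the other 4 genes with a probe ranged from -0.04 to 0.15, with cyp-13A4 above background in no channel. In the cyp-14A cluster on chromosome X the ratios were -0.12, 0.54 and 1.23 for cyp-14A1, cyp-14A2 and cyp-14A3. On chromosome V cyp-32B1 at 0.91 lies next to cyp-33C12 at 0.23. The 5 genes from cyp-33C4 to cyp-33C7 lay close together by their brightest probes, between 0.09 and 0.36, as did the pair cyp-13A11 and cyp-13A12 at 0.23 and 0.32. Dimmer probes gave 0.04 and 0.04 for cyp-13A11 and 0.10 for cyp-33C4. cyp-13A12 was above background in only 2 of 6 channels of either treatment. Uncalled neighbours in these sentences were named for their position after their values were seen. Probe sequences were not used here, so binding of a probe to the transcript of a close relative was not tested.

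**Figure D5:**
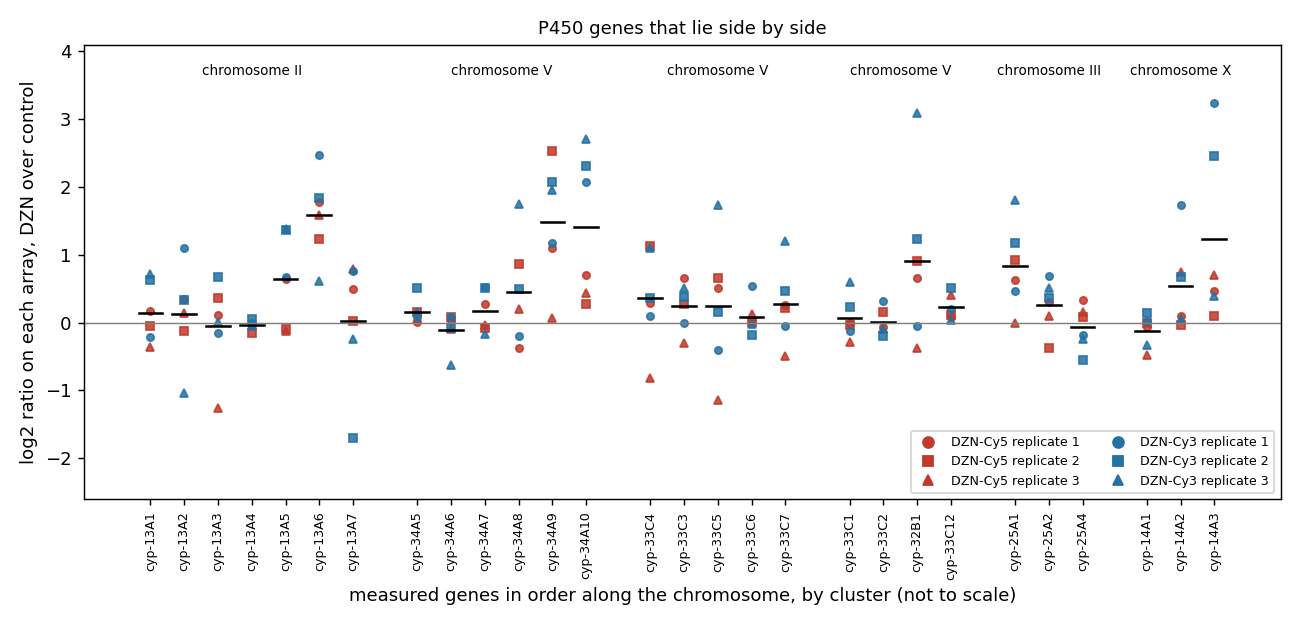
Log2 ratio of DZN over control on each array (vertical axis) for the measured genes of the 6 clusters with at least 3 measured genes, in their order along the chromosome (horizontal axis, not to scale), with DZN-Cy5 arrays in red, DZN-Cy3 arrays in blue and means as black bars. Some called genes, such as cyp-34A9 at 1.48 and cyp-34A10 at 1.42, share a cluster with genes near 0, such as cyp-34A6 at -0.10. The gene next to cyp-34A9 on its other side is cyp-34A8 at 0.46.

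The partners of P450 enzymes were described from a list of 34 measured genes. limma called 0 of them, against 0.0112% of all genes higher and 0.00558% lower, so 0 calls say little of the list. At an unadjusted p under 0.05 in limma 5 were higher and 1 lower, against 3.3% and 8.51% of all genes. Of all genes 48.4% were above 0, and rank products called 0.636% higher and 0.764% lower. Of 5 electron donors 2 were above 0 and none was called by either test. The reductase emb-8, which passes electrons from NADPH to microsomal P450 enzymes, had levels of 12.83, 13.21 and 13.98 in DZN worms, 12.53, 12.87 and 13.44 in control worms and a ratio of 0.35 ± 0.19 (limma adjusted p = 0.538). The smallest p in this group was that of the cytochrome b5 gene cytb-5.2, at -0.29 ± 0.13 (adjusted p = 0.493). Of 15 regulators 13 were above 0, with a median of 0.16 and 0 called, and aha-1, the partner of the aryl hydrocarbon receptor, had the smallest p, at 0.26 ± 0.09 (adjusted p = 0.395). Of 8 genes around the steroid hormone P450 daf-9, 4 were above 0 and 0 were called, and daf-9 itself had 0.28 ± 0.16. The smallest p there was that of ncr-2, a gene of sterol transport, at -0.55 ± 0.15 (adjusted p = 0.303). Of 6 heme-handling genes, which supply the cofactor of P450 enzymes, hrg-3 was above background in no channel and the other 5 had ratios between 0.13 and 0.85. Of these, hrg-7, a secreted intestinal signal of heme status, was called higher by rank products alone. It had 13.88, 14.52 and 14.81 in DZN worms, 13.09, 13.70 and 14.09 in control worms and a ratio of 0.85 ± 0.10 (limma adjusted p = 0.0704), with single arrays between 0.62 and 1.23.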

How the data were processed

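The deposited scanner files hold spot intensity values and local background, not normalized, and the deposited percent of saturated pixels and quality score (a code that no source used here explains) per spot. The authors also deposited log2 ratios, which equalled a loess fit on the foreground turned to DZN over control (slope 1.00 on each array, column medians -0.0146 to 0.0113) and served as an alternative. Per the methods the authors used loess and Aquantile from limma and called genes by rank products. Here spot means were corrected with normexp (offset 50), normalized by loess (control spots at weight 0) and Aquantile, and fitted with limma 3.58.1 in R 4.3.3 (lmFit and eBayes, 6 arrays, dye orientation as a term, 4 residual degrees of freedom and 3.56 from the prior). The Benjamini-Hochberg adjustment ran over 22490 worm probes (threshold 0.05, two-sided). The offset draws ratios of dim probes towards 0. Rank products were written from their published definition, with 100 permutations, and the form the authors ran is not known. Both tests were checked on simulated data. For rank products, false calls were held to a limit only where all simulated probes had the same spread, unlike the probes here.

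Names of 21413 probes matched the RefSeq gene table of WBcel235, used for names and gene order only, and 1077 matched none. A gene is its brightest probe, and 9 of the 64 genes have several. Above background means a foreground over the mean local background plus 2 SD. Values after ± are limma standard errors over 6 arrays. Levels are given as the lowest, median and highest of 6 channels. The number of arrays limits the precision. The members, the marker and partner lists and the rule for named genes were chosen with earlier results of these data known. The rule named genes called by either test, the highest and lowest of each subfamily, single-gene subfamilies, genes of a known role, genes of one sign on all arrays with a ratio over 0.5, and the smallest p of each partner and marker group. Of the partner list, fdx-1 and nhr-49 were not analysed here. Promoter and protein sequences were not used here. All arrays share a scan date, so no block of it could be fitted. Alternatives are given in the closing section.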

Additional observations from a re-analysis of the deposited data

Results flagged for a closer look

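In 2 of the 32 named genes a single array stood apart from the other 5 by Dixon's criterion, which chance alone meets in about 5 percent of groups. The ratio of cyp-29A3 was -0.844 on DZN-Cy3 replicate 3, where the nearest of the other arrays had 0.0834 and the highest 0.593. Its level on that array was 7.99 in DZN worms and 8.84 in control worms. The ratio of cyp-33E2 was -1.41 on DZN-Cy5 replicate 3, where the nearest of the other arrays had -0.135 and the highest 0.221. Its level on that array was 8.73 in DZN worms and 10.14 in control worms. Without the array the mean was 0.32 for cyp-29A3 and 0.02 for cyp-33E2.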

How the results depend on the processing

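limma called 0 of the 64 genes with plain subtraction of the background, normexp at offset 0, no dye term, spots of other quality codes than 3 left out, robust and trended eBayes, the replicate block, same-numbered arrays averaged, and within the DZN-Cy5 or the DZN-Cy3 arrays, where 4 to 16 genes had an unadjusted p under 0.05 in the higher direction. It called 2 with median centring and 0 to 3 with 1 array left out. Of all worm probes limma called 3 higher and 1 lower in the main fit. These counts were 19 and 11 with median centring, and 32 and 100 without DZN-Cy3 replicate 3. They were 0 and 0 with plain subtraction, robust and trended eBayes, the replicate block and within either orientation. In those fits 0 calls among the 64 genes are thus no result about the family. Of the 64 genes rank products called 4 with plain subtraction, 5 with offset 0 or median centring, and 4 with same-numbered arrays averaged. They called 1 within the DZN-Cy5 arrays (cyp-13A6), 4 within the DZN-Cy3 arrays, and 4 to 9 with 1 array left out. The higher calls over all worm probes moved too, from 118 in the main run. They were 40 with plain subtraction, 59 with offset 0, 78 with median centring and 45 with same-numbered arrays averaged. Within the DZN-Cy5 arrays they were 23, within the DZN-Cy3 arrays 49, and with 1 array left out between 55 and 172. With all 6 arrays cyp-13A6, cyp-34A9, cyp-34A10 and cyp-14A3 were called by rank products under every alternative run. Neither test called any of the 64 genes lower under an alternative. The median of the 64 genes was 0.28 with other quality codes left out, where 52 genes could be tested, 0.06 within the DZN-Cy5 and 0.26 within the DZN-Cy3 arrays, between 0.10 and 0.16 with 1 array left out, 0.09 in the authors' own ratios or with no background correction, and between 0.12 and 0.17 in all others. For single named genes under an alternative, 659 values kept direction and side of the limma threshold, 14 lost a call, 3 gained one, 24 uncalled values changed sign, and 0 reversed a call. Deviations of same-numbered arrays correlated at 0.15, -0.01 and -0.08, so the replicate numbers as given show no pairing. For DZN-Cy5 replicates 1, 2 and 3 with DZN-Cy3 replicates 2, 3 and 1 the correlations were 0.17, 0.29 and 0.18. With DZN-Cy3 replicates 3, 1 and 2 they were -0.22, -0.34 and -0.11. Whether arrays share material under other numbers was not tested. With the replicate block cyp-34A10 had a limma adjusted p of 0.176. The 5 genes above background in no channel have no measurable ratio, and 13 of the 64 were above background in fewer than 6 channels.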
